A study of Rattus norvegicus with 2 samples.

Results

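The genes described here are 9 regulators of skeletal muscle formation: the paired-box factors Pax7 and Pax3, the 4 myogenic regulatory factors Myf5, Myod1, Myog and Myf6, the fusion genes Mymk and Mymx, and the MADS-box factor Mef2c. They were found by gene name in the deposited count tables, and all 9 were present, as 9 of the 23373 gene rows of the SD rat library and as 18 of the 49280 rows of the chimera library, 1 rat row and 1 mouse row for each gene. The study asked which cell types mouse induced pluripotent stem cells had formed in the skeletal muscle of a rat-mouse chimera, beside the composition of muscle from an SD rat. Each group was 1 library of live-sorted cells from muscle of the whole body of 1 animal, read as 3′ single-cell RNA-seq. The chimera had been made by injecting mouse cells into SD rat morulae. The mouse cells were 1 iPSC clone that carried a CRISPR/Cas9-edited Dmd mdx allele and a Pax7-nGFP reporter, and the rat cells of the chimera and of the SD rat carried neither. The SD rat had received no mouse cells. The ages of both animals were not given in the sources used here. Because each group was 1 library, no difference was tested between animals. Intervals beside values are exact 95% intervals that cover counting error only.

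Satellite cells are the resident stem cells of muscle and lie against the fibre under its basement membrane. Pax7 marks them and maintains the pool, and Pax3 is its close relative with a larger part in the embryo. Myf5 and Myod1 are the basic helix-loop-helix factors that commit a cell to the muscle lineage, and Myog and Myf6 act later, in differentiation and in the fibre. Mymk and Mymx encode myomaker and myomixer, the membrane proteins with which myoblasts join into multinucleated fibres. Mef2c is a cofactor of the myogenic factors and also acts in endothelial, immune and neural cells. The myogenic factors bind short DNA motifs of the letters CANNTG, known as E-boxes.

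Promoters of 6 of the 9 genes were matched in RefSeq (GRCr8 build, 250 bases before to 50 after a start), and 4 are shown. They are those of Pax7 and Myf5, highest in satellite-stage cells below, and of Myog and Mymx, which rose in differentiating cells. The promoter of Myf6, the gene highest in fibres with Mef2c, is not printed. Promoters of Myod1, Mymk and Mef2c were not matched. Capitals mark each CANNTG, a motif that reads the same on both strands, and CAGCTG is 1 of its forms. Of 33469 rat promoters of this length, 72.1% held at least 1 CANNTG, 5.79% held 4 or more and 15.1% held CAGCTG. Pax7 (chr5:157381072-157381371, minus strand) and Myf5 (chr7:44692589-44692888, minus strand) held no CANNTG in this window. Myog (chr13:48297226-48297525, plus strand) held 2, and Myf6 and Pax3 held 1 each. The first of 3 overlapping starts of Mymx (chr9:22894274-22894573, plus strand) held 7, of which 2 were CAGCTG, and the other starts held 5 each. A match is only a match of letters, and no binding was measured.
Pax7: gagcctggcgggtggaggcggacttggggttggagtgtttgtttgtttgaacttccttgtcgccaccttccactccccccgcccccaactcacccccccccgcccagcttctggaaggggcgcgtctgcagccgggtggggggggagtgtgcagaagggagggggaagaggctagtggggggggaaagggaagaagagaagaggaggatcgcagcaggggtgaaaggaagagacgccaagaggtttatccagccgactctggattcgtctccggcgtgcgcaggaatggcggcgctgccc
Myf5: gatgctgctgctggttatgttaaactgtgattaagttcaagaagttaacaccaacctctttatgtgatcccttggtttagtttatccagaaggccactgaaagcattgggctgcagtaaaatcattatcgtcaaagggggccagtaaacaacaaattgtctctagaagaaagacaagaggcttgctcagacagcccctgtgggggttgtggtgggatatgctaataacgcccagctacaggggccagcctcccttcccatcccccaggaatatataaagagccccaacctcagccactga
Myog: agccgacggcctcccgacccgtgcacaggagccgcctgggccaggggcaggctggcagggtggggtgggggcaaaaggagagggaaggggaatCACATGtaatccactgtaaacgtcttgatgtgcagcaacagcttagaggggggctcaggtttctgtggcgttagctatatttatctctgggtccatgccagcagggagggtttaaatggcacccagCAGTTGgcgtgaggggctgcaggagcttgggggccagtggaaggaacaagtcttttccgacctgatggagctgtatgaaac
Mymx: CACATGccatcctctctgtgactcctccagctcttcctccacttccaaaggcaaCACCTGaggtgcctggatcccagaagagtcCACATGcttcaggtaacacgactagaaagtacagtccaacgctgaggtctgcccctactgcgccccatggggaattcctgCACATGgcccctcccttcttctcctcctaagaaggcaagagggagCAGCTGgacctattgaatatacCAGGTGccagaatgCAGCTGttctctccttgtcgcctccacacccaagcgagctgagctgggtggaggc

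After filtering, 8816 cells of the SD rat and 11730 barcodes of the chimera were kept, with a median of 6276 and 7848 unique molecular identifiers (UMIs, 1 per captured RNA molecule). The chimera barcodes fell into 8230 rat cells (at most 20% of UMIs on mouse rows), 1847 mouse cells (at least 80%) and 1653 mixed barcodes, which were left out of the comparisons. The libraries shared 43 barcode sequences. Cells were clustered without the 9 genes, so that none of them chose the clusters. Clusters were called myogenic progenitor (MP)-like or myofibre-like by fixed marker lists, that is by how many markers a cluster raised over the other cells. SD rat cluster 11 raised 10 of 10 MP markers, chimera rat cluster 11 raised 8 and chimera rat cluster 21, which holds most of its Myog-positive cells, raised 5. MP-like cells numbered 410 in the SD rat (cluster 11 and 65 cycling cells) and 460 among chimera rat cells (clusters 11 and 21 and 51 cycling cells). They were divided into satellite-stage cells (not cycling, 0 Myog UMIs; 285 in the SD rat and 272 in the chimera rat), cycling Myog-negative cells (57 and 42) and Myog-positive cells (at least 1 Myog UMI; 68 and 146). Myofibre-like cells numbered 1521 and 833, and were named from their transcripts alone. A group of 47 mouse cells, called mouse cluster 13 here, raised all 10 MP markers but also had Acta2 and Tagln among its leading genes, and stayed unnamed. Of its 420 Tagln UMIs, 397 lay in 1 cell. Its 691 Acta2 UMIs were spread wider, over 36 of the 47 cells, with 306 in the highest cell. With a minimum of 1000 UMIs per cell, the same naming rule called 45 mouse cells MP-like. Under the other settings run it called no mouse cells MP-like. Mouse cluster 13 held 35 Myog-negative and 12 Myog-positive cells, and 29 further mouse cells were myofibre-like. Values are UMIs of a gene per 1000000 UMIs of the group (CPM), with rat and mouse rows added in chimera cells.

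Depth differed between the stages and bears on every share of cells with a UMI. The median was 5596 UMIs in satellite-stage, 11133 in cycling, 11038 in Myog-positive and 3635 in myofibre-like cells of the SD rat. The medians in the chimera rat were 7354, 12012.5, 11539.5 and 5402. Shares are therefore also given after each cell was thinned at random to 1000 UMIs, which kept 1425 of 1521 SD rat and 828 of 833 chimera rat fibres and all but at most 3 cells of any other stage. CPM of summed counts does not carry this difference.

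Pax7 and Myf5 were highest in satellite-stage cells and lowest in myofibre-like cells of both rat populations. Pax7 stood at 152 CPM (133 to 172) in SD rat satellite-stage cells, 72.2 in cycling cells, 16.2 (8.61 to 27.7) in Myog-positive cells and 0.305 in myofibre-like cells. In chimera rat cells it stood at 158 (141 to 176), 90.1, 28.1 (21.0 to 36.9) and 0.959 CPM. The fall therefore ran in the same order in both, with counting intervals that did not overlap between satellite-stage, Myog-positive and myofibre-like cells. The ratio of Myog-positive to satellite-stage cells, as log2 of CPM + 10, was -2.63 (-3.29 to -1.93) in the SD rat and -2.14 (-2.58 to -1.69) in the chimera rat. Pax7 was detected in 139 of 285 satellite-stage cells of the SD rat (48.8%, 42.8 to 54.7) and in 154 of 272 of the chimera rat (56.6%, 50.5 to 62.6), which thinning lowered to 14.8% and 15.4%. In fibro-adipogenic progenitor (FAP)-like cells, stromal cells that should lack it, Pax7 was detected in 0.247% and 0.866% of cells. No single cell made these levels, since the highest satellite-stage cell held 6 and 9 Pax7 UMIs.

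Myf5 followed Pax7. It measured 147 CPM (129 to 167), 78.7, 13.7 (6.83 to 24.5) and 3.05 CPM over satellite-stage, cycling, Myog-positive and myofibre-like cells of the SD rat. Chimera rat cells measured 158 (141 to 176), 124, 30.3 (22.9 to 39.3) and 0.959 CPM. The log2 ratio of Myog-positive to satellite-stage cells was -2.73 in the SD rat and -2.06 in the chimera rat, and 1 chimera rat cell held 17 of the 56 Myf5 UMIs of its Myog-positive group. Pax3 was sparse. Its 21 UMIs in SD rat satellite-stage cells gave 13.1 CPM (8.13 to 20.1) and its 37 in the chimera rat 17.9 (12.6 to 24.7). In Myog-positive cells it had 4 and 11 UMIs, 4.98 and 5.94 CPM, with intervals that overlapped those of satellite-stage cells in the SD rat and not in the chimera rat.

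Myod1, the commitment factor, did not separate satellite-stage from Myog-positive cells. The SD rat values were 105 CPM (89.8 to 122) in satellite-stage, 170 (139 to 206) in cycling, 99.5 (78.9 to 124) in Myog-positive and 15.4 (12.6 to 18.7) in myofibre-like cells. The chimera rat values were 72.5 (61.4 to 85.1), 70.1 (48.8 to 97.5), 96.7 (83.1 to 112) and 10.9 (8.28 to 14.2). Myog-positive and satellite-stage cells thus overlapped within counting error in both populations, at log2 ratios of -0.07 (-0.57 to 0.42) and 0.37 (-0.03 to 0.77). Cycling cells of the SD rat stood above its satellite-stage cells, at a log2 ratio of 0.65 (0.18 to 1.11), while those of the chimera rat stood at -0.04 (-0.69 to 0.59). Detection per cell was 24.2% and 25.7% in satellite-stage cells against 44.1% and 41.8% in Myog-positive cells, but thinned to equal depth it was 5.63% and 6.25% against 10.5% and 8.97%.

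**Figure D1:**
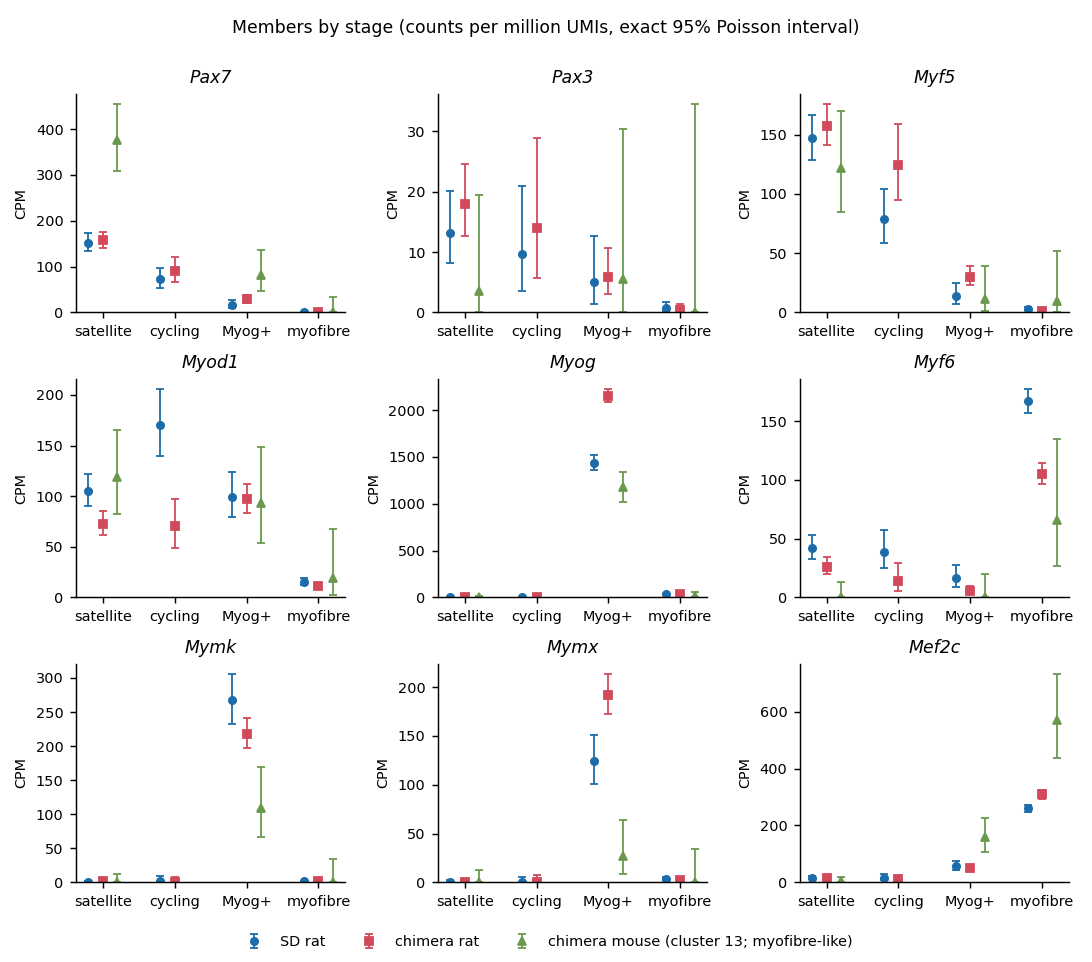
Level of each of the 9 genes (CPM, vertical axis) in satellite-stage, cycling Myog-negative, Myog-positive and myofibre-like cells of the SD rat, the chimera rat and the chimera mouse (mouse cluster 13 and mouse myofibre-like cells); bars are exact 95% Poisson intervals of the summed counts, 1 library each. Pax7 and Myf5 fall from satellite-stage to myofibre-like cells, Mymk and Mymx peak in Myog-positive cells (267 and 124 CPM in the SD rat), and Myf6 and Mef2c are highest in myofibre-like cells in both rat populations.

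Myog, the differentiation factor, was used to cut the stages, so its level in the stages of MP-like cells is not a result. The share of cells it marked was 68 of 410 MP-like cells in the SD rat (16.6%, 13.1 to 20.5) and 146 of 460 in the chimera rat (31.7%, 27.5 to 36.2). Thinned to 1000 UMIs, the shares were 9.63% and 22.1%. Most of the chimera cells in question formed cluster 21, in which 90 of 92 cells had Myog and which was led by Actc1, Cdkn1c, Csrp3, Klhl40 and Tnnt2. In cluster 11 of each population Myog marked 14.8% of chimera rat cells and 17.4% of SD rat cells. The chimera share was 41.8% of 239 MP-like cells when at most 10% of a cell's UMIs could lie on mouse rows, and 27.0% when only rat rows were counted. Whether the difference belongs to the animal, the library or its depth cannot be told apart with 1 library each. Markers of some other cell types moved with the stage: the 9 pericyte or mural markers summed to 2434 and 2706 CPM in satellite-stage cells of the SD and chimera rat and to 720 and 795 CPM in Myog-positive cells (1 of 9 at 0 in each). The 10 FAP markers summed to 1707 (1 at 0) and 1743 CPM (0 at 0) in satellite-stage cells and to 259 (3 at 0) and 825 CPM (0 at 0) in Myog-positive cells. The 8 neutrophil or monocyte markers summed to 412 CPM in Myog-positive cells of the chimera rat (2 at 0), against 7.46 in those of the SD rat (6 at 0), and their part in the values was not tested. Background was low, with Myog in 1.39% and 1.99% of FAP-like and 1.76% and 1.39% of endothelial cell (EC)-like cells of the SD and chimera rat. Myog barcodes were called doublets, and left out, more often than others, at 3.12% against 1.83% of all SD rat barcodes and 6.04% against 3.65% in the chimera. Barcodes with Pax7 (0.948% and 2.68%) or Mymk (0% and 0.847%) were called doublets less often than all barcodes.

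In myofibre-like cells, which Myog did not define, it stood at 35.4 CPM (31.0 to 40.3) in the SD rat and 35.9 (30.9 to 41.4) in the chimera rat. It was found in 189 of 1521 fibres (12.4%) and 114 of 833 (13.7%), and 1 chimera cell held 48 of the 187 UMIs. These shares lay above the 1.39% and 1.99% of FAP-like cells, which were deeper, at medians of 11006.5 and 12143 UMIs against 3635 and 5402 in fibres.

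The fusion genes were nearly confined to Myog-positive cells among the myogenic stages. Mymk had 0 UMIs in the 285 satellite-stage cells of the SD rat, 1 in the cycling cells, 215 in the 68 Myog-positive cells (267 CPM, 233 to 306) and 9 in the 1521 myofibre-like cells (1.37 CPM, 0.628 to 2.61). Chimera rat cells had 4, 0, 404 and 11 UMIs, which is 1.93 (0.527 to 4.95), 0, 218 (198 to 241) and 2.11 (1.05 to 3.78) CPM. Mymx had 0, 0, 100 and 22 UMIs in the SD rat and 1, 0, 356 and 13 in the chimera rat, with 124 (101 to 151) and 192 (173 to 213) CPM in Myog-positive cells. Both genes thus rose from near 0 and returned to low levels in fibres. In Myog-positive cells of the SD rat, Mymk stood 143-fold and Mymx 66.3-fold above a floor of 3 UMIs over the satellite-stage group. These ratios leave out the counting intervals of the Myog-positive values. A count of 0 in 285 cells allows a share of up to about 1.05% with a UMI, where the exact limit is 1.29%. Shares that a count of 0 allows are approximate here and below, at 3 divided by the number of cells.

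Mymk was seen in more Myog-positive cells than Mymx, in 35 of 68 against 19 in the SD rat and in 68 of 146 against 55 in the chimera rat. All 19 Mymx-positive cells of the SD rat also had Mymk, and so did 50 of 55 in the chimera rat (90.9%, 80.1 to 97.0). At least 1 of the pair was found in 51.5% and 50.0% of Myog-positive cells. The chance to see either gene grows with depth, and thinned detection of Mymk in Myog-positive cells was 14.9% and 15.2%, and of Mymx 7.46% and 13.8%. In fibres, at least 1 of the pair was found in 1.78% (1.17 to 2.57) and 2.52% (1.57 to 3.83) of cells.

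Myf6, also called MRF4 and the factor most tied to the mature fibre, was lowest where the fusion genes were highest. It measured 41.9 CPM (32.5 to 53.2) in satellite-stage, 38.5 in cycling, 16.2 (8.61 to 27.7) in Myog-positive and 167 (157 to 177) in myofibre-like cells of the SD rat. Chimera rat cells measured 26.1 (19.6 to 34.1), 14.01, 5.40 (2.59 to 9.94) and 106 (96.9 to 115) CPM. The dip in Myog-positive cells was -0.99 (-1.76 to -0.17) on the log2 scale in the SD rat and -1.23 (-1.81 to -0.57) in the chimera rat. The rise from satellite-stage cells to fibres was 1.77 (1.41 to 2.14) and 1.68 (1.28 to 2.07). Satellite-stage Myf6 stood above its level in FAP-like cells, 3.39 and 1.37 CPM. Fibre transcripts were also present in satellite-stage cells: the 12 fibre markers, none of them at 0, summed to 14352 CPM in the SD rat and 5752 in the chimera rat, against 363565 and 368451 CPM in myofibre-like cells. In Myog-positive cells, where Myf6 was lowest, the fibre markers summed to 25201 CPM (1 of 12 at 0) and 7565 CPM (0 at 0). The part of free fibre RNA in satellite-stage Myf6 was not tested.

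Mef2c was higher in Myog-positive than in satellite-stage cells, and higher again in fibres. In the SD rat it stood at 16.3 CPM (10.6 to 23.8) in satellite-stage, 57.2 (41.9 to 76.3) in Myog-positive and 261 (248 to 273) in myofibre-like cells. Chimera rat cells stood at 16.0 (11.0 to 22.4), 50.3 (40.6 to 61.6) and 309 (294 to 325) CPM, and 1 Myog-positive cell held 16 of 93 UMIs. The step to Myog-positive cells was 1.36 (0.62 to 2.07) and 1.22 (0.64 to 1.77) on the log2 scale, and 0.66 in the chimera rat when cells were assigned to the species of most of their UMIs. The step from Myog-positive cells to fibres was 2.01 and 2.41. Within Myog-positive cells with 1, 2 to 9 and 10 or more Myog UMIs, Mef2c stood at 31.7, 58.6 and 61.5 CPM in the SD rat. In the chimera rat it stood at 78.8, 88.7 and 35.0 CPM, lowest in the cells with most Myog.

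Of 8 members with at least 50 UMIs over Myog-positive and satellite-stage cells, 6 passed 2-fold in the SD rat and 7 in the chimera rat, where 13.2% of 5284 and 8.31% of 6657 genes passed. Myog, which defined the groups, and Mymk and Mymx, which reached 50 UMIs only through Myog-positive cells, are among them. Without these 3, Pax7, Myf5 and Mef2c passed in the SD rat (3 of 5), and Myf6 as well in the chimera rat (4 of 5). Some of these also reached 50 UMIs only through their higher group. They were Pax7 (13 UMIs against 243) and Myf5 (11 against 235) in the SD rat, and Myf6 (10 against 54) and Mef2c (93 against 33) in the chimera rat. The counts are therefore shaped in part by the filter and are a description only. Between cycling Myog-negative and satellite-stage cells, none of 4 members passed 2-fold in either population, beside 9.65% and 8.04% of genes. Between fibres and satellite-stage cells all 6 members measured passed 2-fold in both populations, but so did 59.5% and 61.9% of all genes, so that this count says little about the members. The median gene was itself lower in fibres, by log2 values of -0.98 and -1.11. Myod1 at -2.18 and -1.98 was thus about 1 log2 unit below the median gene, while Myf6 and Mef2c moved against it. From Myog-positive cells to fibres, 6 of 6 and 8 of 8 passed, beside 56.7% and 62% of genes.

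Ordering MP-like cells without Myog gave the same sequence at finer steps for Pax7, Myf5, Myf6, Mymk and Mymx. It did not do so for Mef2c in the chimera rat. This order is not independent of the stages, since its genes were chosen with earlier results of these data known. They summed to 377 CPM in satellite-stage and 10043 CPM in Myog-positive cells of the SD rat, and to 340 and 7308 CPM in the chimera rat. The bins thus largely follow the split by Myog, and the shared sequence is a description at finer steps. Cells were placed by the UMIs of 11 early differentiation genes (Tnnt2, Actc1, Mybph, Myl4, Myh3, Myh8, Chrna1, Chrnd, Chrng, Cdkn1c and Rapsn; 10 measured in the rat) among 1000 thinned UMIs. Bins of 0, 1 to 2, 3 to 9 and 10 or more held 279, 78, 24 and 24 SD rat cells and 284, 86, 50 and 38 chimera rat cells. SD rat Pax7 stood at 127 (111 to 144), 120 (93.2 to 153), 6.81 (0.824 to 24.6) and 0 CPM over these bins. In the chimera rat it stood at 143 (128 to 159), 82.3 (63.1 to 105), 19.5 (10.7 to 32.8) and 9.06 (2.94 to 21.2) CPM. The drop in the SD rat lay between the second and the third bin, with no drop before it beyond counting error, while the chimera rat showed a first drop at the second bin.

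Myog itself, which played no part in this order, stood at 14.8, 59.2, 1164 and 2178 CPM in the SD rat and 85.2, 261, 2530 and 3220 in the chimera rat. Mymk stood at 0, 12.6 (5.04 to 25.9), 109 (74.5 to 154) and 510 (437 to 591) CPM in the SD rat and at 6.68, 11.9, 212 (180 to 249) and 417 (365 to 475) in the chimera rat. Mymx stood at 0, 7.18, 54.5 (31.1 to 88.5) and 232 (184 to 288) and at 7.1, 2.65, 181 (152 to 216) and 375 (326 to 430). Pax7 had thus fallen by the bin in which the fusion genes came up, and Myog, Mymk and Mymx kept rising to the last bin in both populations. Myod1 moved in no steady direction, at 108, 133, 153 and 110 CPM in the SD rat and 57.2, 129, 75.4 and 138 in the chimera rat. Myf6 fell to 0 UMIs in the last bin of both populations, from 40.0 and 23.8 CPM in the first. Mef2c rose in the SD rat, at 19.2 (13.3 to 26.7), 23.3, 40.9 and 63.7 (39.9 to 96.5) CPM. In the chimera rat Mef2c stood at 30.5 (23.9 to 38.3), 15.9, 33.5 and 39.9 (25.0 to 60.4) CPM. There the intervals of the first and last bins overlapped.

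**Figure D2:**
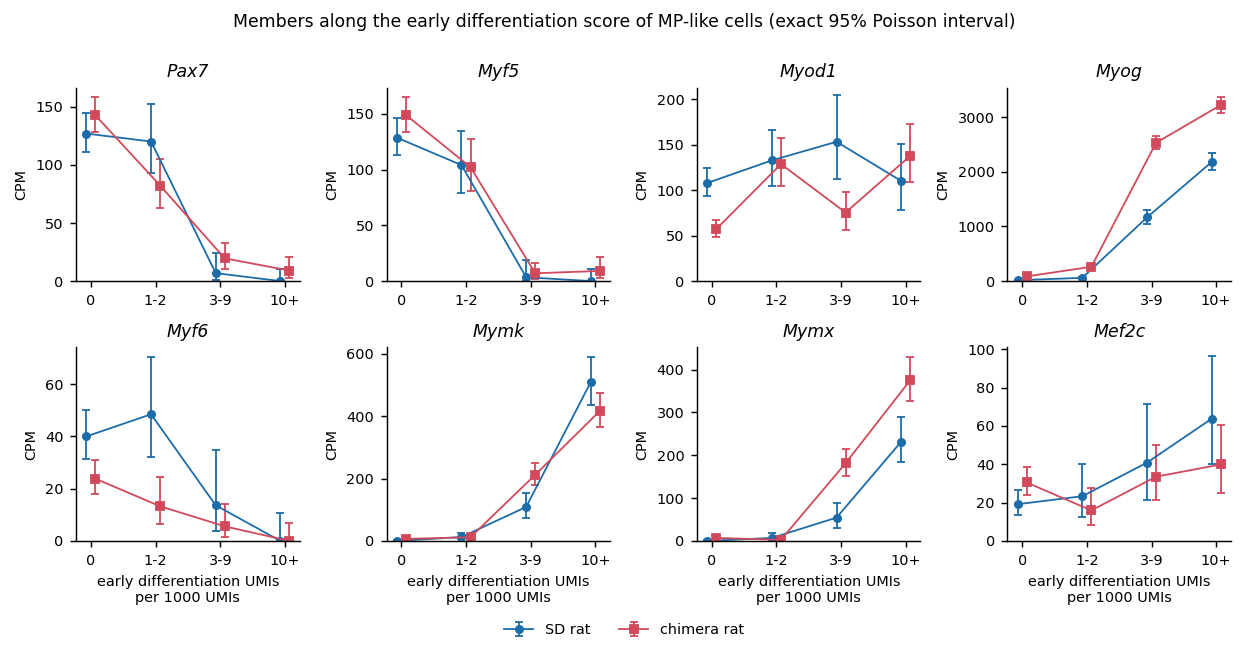
Level of the genes (CPM, vertical axis) in MP-like cells of the SD rat and the chimera rat placed in 4 bins by UMIs of early differentiation genes per 1000 thinned UMIs (horizontal axis: 0, 1 to 2, 3 to 9, 10 or more); bars are exact 95% Poisson intervals. Pax7 and Myf5 drop and Myog, Mymk and Mymx climb to the last bin, in which Pax7 stands at 0 CPM in the SD rat and 9.06 in the chimera rat.

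Co-detection in single cells followed this order. Among the 173 Pax7-positive MP-like cells of the SD rat, 48.0% also had Myf5, against 29.1% of the cells without Pax7. The chimera rat shares were 114 of 203 (56.2%, 49.0 to 63.1) against 60 of 257 (23.3%, 18.3 to 29.0). Thinned, they were 23.4% (12.3 to 38.0) against 10.6% (7.62 to 14.3) in the SD rat and 18.0% (8.58 to 31.4) against 10.3% (7.52 to 13.7) in the chimera rat, with intervals that overlapped. Myod1 was found in 28.3% (21.7 to 35.7) of SD rat cells with Pax7 and 31.2% (25.4 to 37.5) of those without it, and in 28.6% (22.5 to 35.3) and 35.4% (29.6 to 41.6) in the chimera rat, shares that overlapped within counting error. Pax7 and Myog were seen together less often than apart. In the SD rat 4.62% of Pax7-positive cells had Myog against 25.3% of Pax7-negative cells, and in the chimera rat 12.3% (8.13 to 17.6) against 47.1% (40.8 to 53.4). After thinning, 2.99% and 3.45% of the Myog-positive cells kept a Pax7 UMI. Of those that also kept a Myog UMI, which favours cells with many of them, 0 of 39 in the SD rat and 0 of 101 in the chimera rat did, against 12.8% and 14.01% of the other MP-like cells.

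Cells with both Pax7 and Myog nevertheless existed before thinning, 8 of 410 MP-like cells in the SD rat and 25 of 460 in the chimera rat. In the SD rat Pax7 was found in 3 of 14 cells with 1 Myog UMI, 5 of 20 cells with 2 to 9 and 0 of 34 cells with 10 or more. In the chimera rat it was found in 9 of 22 (40.9%, 20.7 to 63.6), 8 of 37 (21.6%, 9.80 to 38.2) and 8 of 87 (9.20%, 4.05 to 17.3). Mymk ran the other way, in 1 of 14, 4 of 20 and 30 of 34 SD rat cells (88.2%, 72.5 to 96.7) and in 0 of 22, 5 of 37 and 63 of 87 chimera rat cells (72.4%, 61.8 to 81.5). The median depth of these cells also differed, at 5401, 9908.5 and 14201 UMIs in the SD rat and 8911.5, 9014 and 14254 in the chimera rat, and its part in either gene's shares was not tested. Mymx was found in 0 of 14, 1 of 20 and 18 of 34 cells and in 1 of 22, 3 of 37 and 51 of 87.

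**Figure D3:**
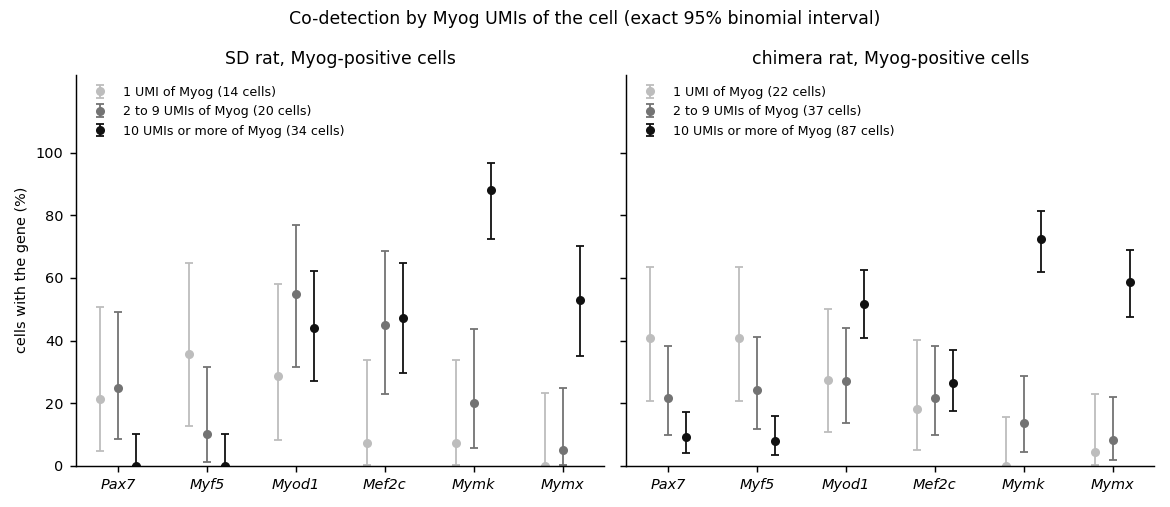
Share of Myog-positive cells (vertical axis, %) with at least 1 UMI of each gene on the horizontal axis, split by the number of Myog UMIs in the cell (1, 2 to 9, 10 or more), in the SD rat (14, 20 and 34 cells) and the chimera rat (22, 37 and 87 cells); bars are exact 95% binomial intervals. Pax7 and Myf5 have their lowest shares with 10 or more Myog UMIs, and Mymk in 88.2% and 72.4% of cells with 10 or more.

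Outside Myog-positive cells the fusion genes were all but absent from MP-like cells. Mymk was detected in 1 of 342 Myog-negative MP-like cells of the SD rat (0.292%) against 35 of 68 Myog-positive cells, and in 4 of 314 (1.27%, 0.348 to 3.23) against 68 of 146 in the chimera rat. Thinned, Mymk was found in 23.1% and 20.8% of cells that kept Myog and 0.546% and 0.560% of the others. Of the Mymk-positive cells, 97.2% and 94.4% had Myog. No Mymk-positive cell of the SD rat had Myf5 (0 of 36, which allows up to 8.33%), whereas 6 of 72 did in the chimera rat. Myod1 was seen in 41.7% of Mymk-positive and 28.9% of Mymk-negative MP-like cells of the SD rat, with overlapping intervals, and in 48.6% (36.7 to 60.7) against 29.4% (24.9 to 34.2) in the chimera rat. Over Pax7, Myod1, Myog and Mymk together, 118 SD rat and 127 chimera rat MP-like cells showed Pax7 alone, and 130 and 96 showed none of the 4.

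In myofibre-like cells the pairs Myf6 with Mef2c and Myog with Mymx were taken both as found and thinned. Mef2c was detected in 61.5% (57.8 to 65.2) of the 671 Myf6-positive fibres of the SD rat and 50.6% (47.2 to 54.0) of the 850 others, but in 45 of 226 (19.9%, 14.9 to 25.7) against 265 of 1199 (22.1%, 19.8 to 24.6) once cells were thinned. In the chimera rat the shares were 77.7% against 72.7% as found and 28.0% against 26.0% thinned, with intervals that overlapped. Mymx was found in 8 of the 189 Myog-positive fibres of the SD rat (4.23%, 1.84 to 8.17) and in 10 of the 1332 others (0.751%, 0.361 to 1.38). Thinned, it was found in 0 of 61, which allows a share of up to 4.92%, against 4 of 1364. The chimera rat counts were 1 of 114 and 11 of 719 as found, and 1 of 23 and 2 of 805 thinned.

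Mef2c differed from the other members in its reach outside muscle. In the SD rat it stood at 913 CPM (803 to 1034) in B-like cells, 310 (286 to 336) in pericyte-like, 304 (289 to 320) in vascular EC-like and 172 (160 to 185) in macrophage-like cells, beside 261 in fibres. In chimera rat cells the same classes stood at 1410 (1360 to 1461), 282 (263 to 302), 281 (265 to 297) and 149 (142 to 157) CPM. Mouse B-like and EC-like cells stood at 1107 (1049 to 1168) and 321 (309 to 333) CPM. Fibres thus lay below vascular EC-like cells in the SD rat and within counting error of them in the chimera rat, while FAP-like cells stood at 24.7 and 26.7 CPM. A Mef2c UMI was found in 55.4% of SD rat fibres, 44.2% of vascular EC-like and 78.4% of B-like cells.

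**Figure D4:**
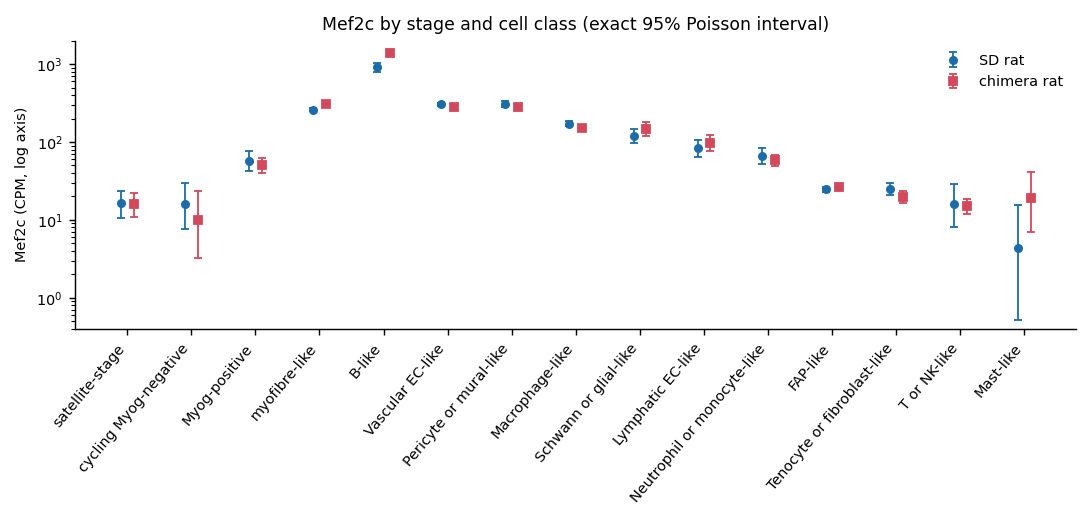
Level of Mef2c (CPM, log axis) in the myogenic stages and other named cell classes of the SD rat and the chimera rat, with exact 95% Poisson intervals of summed counts as bars. B-like cells are highest in both populations (913 and 1410 CPM), and satellite-stage cells lie among the lowest classes.

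The 47 cells of mouse cluster 13 held 8 of the 9 genes, with no UMI of Myf6. Their 35 Myog-negative cells had 108 Pax7 UMIs (376 CPM, 309 to 455; 26 cells), 35 Myf5 UMIs (122 CPM, 85.0 to 170) and 34 Myod1 UMIs (119 CPM, 82.1 to 166), and 0 of Mymk and Mymx. The 12 Myog-positive cells had 15 Pax7 UMIs (81.9 CPM, 45.8 to 135), 2 of Myf5 and 17 of Myod1 (92.9 CPM, 54.1 to 149). They also had 20 Mymk UMIs in 5 cells (109 CPM, 66.7 to 169) and 5 Mymx UMIs in 2 cells (27.3 CPM, 8.87 to 63.7). Mymk stood 10.4-fold above a floor of 3 UMIs in the Myog-negative cells, a ratio that leaves out the counting interval of its value. Of the 29 Mef2c UMIs of the Myog-positive cells, 25 lay in 1 cell. All 15 Myf5-positive cells also had Pax7, and 7 of the 12 Myog-positive cells had Pax7. The 29 mouse myofibre-like cells had 61 Mef2c UMIs (571 CPM, 437 to 733) and 7 Myf6 UMIs (65.5 CPM, 26.3 to 135), and none of Pax7, Mymk or Mymx, where a count of 0 allows up to 10.3% of cells. With so few cells of an unnamed cluster, these values stand beside the rat values without a comparison.

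Chimera rat and SD rat cells were then compared within each stage. None of 6 members measured in satellite-stage cells passed 2-fold, beside 2.03% of all genes, and none of 7 in Myog-positive cells (4.22%) or of 4 in myofibre-like cells (1.51%). Counts of 0 lie near these background shares and are no result about the members. In cycling Myog-negative cells 1 of 3 did (4.8% of genes): Myod1 was lower in the chimera rat, by a log2 ratio of -1.17 (-1.88 to -0.47), with 35 UMIs in 42 cells against 106 in 57, of which 1 SD rat cell held 17. That value was -0.89 when at most 10% of a cell's UMIs could lie on mouse rows. Myod1 leaned the same way in satellite-stage cells, at -0.48 (-0.89 to -0.07), and not in Myog-positive cells, at -0.04 (-0.52 to 0.46). Myf6 was lower in chimera rat fibres, at -0.62 (-0.81 to -0.43), and Mef2c higher, at 0.24 (0.10 to 0.37), where the median gene stood at -0.11. Mymx was higher in chimera rat Myog-positive cells, at 0.59 (0.18 to 1.01), while Mymk stood at -0.28 (-0.61 to 0.05) and Myf5 at 0.77 (-0.07 to 1.55), or 1.09 with a pseudocount of 1 CPM. Pax7 and Myf5 of satellite-stage cells differed by 0.05 (-0.27 to 0.37) and 0.10 (-0.23 to 0.42). Most Myog-positive cells came from cluster 21 in the chimera rat (90 of 146) and from cluster 11 in the SD rat (60 of 68).

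The combined rat and mouse reference split the reads of some members between species rows. In chimera rat MP-like cells, at most 20% of whose UMIs lay on mouse rows in all, 215 of 423 Pax7 UMIs lay on the mouse row (50.8%, 46.0 to 55.7), as did 2199 of 3992 Myog UMIs (55.1%, 53.5 to 56.6) and 44 of 131 Mef2c UMIs (33.6%, 25.6 to 42.4). Pax3 had 5 of 55 (9.09%, 3.02 to 20.0) and Myf5 3 of 444 there. Myod1, Myf6, Mymk and Mymx had none of 364, 71, 408 and 357. So 3 of 9 members had over 20% of their UMIs on the mouse row, a limit that 9.45% of 6655 gene pairs passed, with a median pair at 3.58%. In chimera rat fibres Myog had 49.2% (41.8 to 56.6) and Mef2c 26.5% (24.3 to 28.7) on the mouse row, and Myf6 1.27%. In mouse cluster 13 every UMI of the 8 detected members lay on the mouse row. Chimera values of Pax7, Myog and Mef2c therefore depend on adding both rows. With all members counted from rat rows alone, Pax7 was found in 37.1% rather than 56.6% of chimera rat satellite-stage cells. Myog was then also counted from rat rows, so the satellite-stage cells were not the same set.

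**Figure D5:**
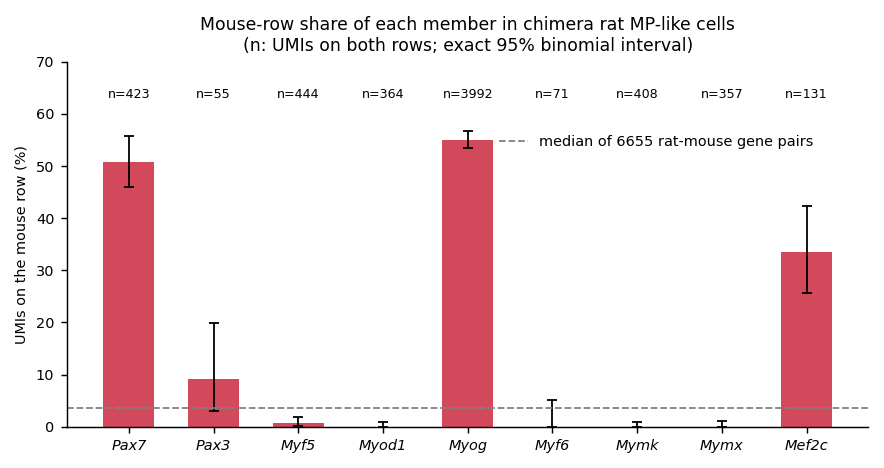
Share of the UMIs of each gene on its mouse row (vertical axis, %) in chimera rat MP-like cells, with the UMIs on both rows above each bar; error bars are exact 95% binomial intervals and the dashed line is the median of 6655 gene pairs (3.58%). Pax7, Myog and Mef2c stand at 50.8%, 55.1% and 33.6%, and the fusion genes at 0.

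Of 45 other regulators of myogenesis and fusion, 30 could be measured between Myog-positive and satellite-stage cells of the SD rat and 34 in the chimera rat. In the SD rat 6 were higher and 8 lower by 2-fold, with a median log2 ratio of -0.13 beside 0.05 over all genes. In the chimera rat 7 were higher and 7 lower, with a median of -0.07 beside 0.02. Over all genes, 13.2% of 5284 in the SD rat and 8.31% of 6657 in the chimera rat passed 2-fold in either direction. Genes higher in both included Cdkn1c, a cell cycle inhibitor, at 5.18 and 4.60, Tmem182, a muscle membrane protein, with 56 UMIs against 0 in the SD rat and 2.34 in the chimera rat, and Rb1, the retinoblastoma protein, at 2.31 and 1.99. Genes lower in both included Id3, which keeps helix-loop-helix factors from DNA, at -1.64 and -1.74, Msc, a repressor of myogenic factors, at -1.84 and -1.59, and Heyl, a Notch target, at -1.99 and -1.30. In all 12 of the regulators were past 2-fold in the same direction in both. Tmem182, with 89 UMIs against 3 in the chimera rat, reached the minimum of UMIs only through Myog-positive cells in both populations. Of the other genes named, Msc and Heyl reached it only through satellite-stage cells. The counts of regulators past 2-fold are therefore shaped in part by the filter and are a description only. Cdkn1c also belongs to the genes that ordered the bins, and Msc to the MP markers.

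The genes whose levels over the 26 SD rat clusters lay closest to each member were found by Pearson's r of log2 of CPM + 10 among 12134 genes. The clusters come from 1 library and differ in depth, so r is a description. Pax7 lay closest to Cdh15 (0.96), Cpa1 (0.95) and Fgfr4 (0.94), and Myf5 to Chrna1 (0.95), Edn3 (0.93) and Pax7 (0.92). Myod1 lay closest to Rapsn (0.96), Fgfr4 (0.88) and Ppp1r14b (0.87), and Myog to Vgll2 (0.95), Dmrt2 (0.90) and Klhl40 (0.88). Cdh15 encodes the adhesion protein M-cadherin and Fgfr4 a growth factor receptor, both of them MP markers here, and Chrna1 and Rapsn belong to the acetylcholine receptor and its anchor. Mymk lay closest to Ccdc13 (0.96), Gal (0.94) and AC126960.1 (0.90), and Mymx to Ovol3 (0.88), Mymk (0.86) and Tnnt2 (0.86). Myf6 lay closest to Popdc3 (0.98), Ndufab1 (0.98) and Taf3 (0.97). Mef2c had the loosest neighbours, Fez2 (0.82), Tp53inp2 (0.76) and Epn1 (0.76). Pax3 had fewer than 50 UMIs in the SD rat and was left out.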

How the data were processed

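The deposited files held raw counts of UMIs per gene and barcode of 2 libraries (Chromium 3′ v3.1), which the authors made with Cell Ranger 7.1.0 on mRatBN7.2 and, for the chimera, also GRCm39. The tables list 13299 chimera barcodes (118872850 UMIs) and 10117 SD rat barcodes (70957559 UMIs). Barcodes with at least 500 UMIs, 200 genes and at most 20% mitochondrial UMIs were kept, and predicted doublets (444 and 164) were removed with Scrublet in scanpy 1.11.5 at an expected rate of 8%. Each population was clustered on its own species' genes without the 9 members and mitochondrial genes (2000 variable genes, 30 components, 15 neighbours, Leiden 0.10.2, resolution 1), and cycling clusters were split again. Clusters were named by marker lists. The scoring rule, and the second split of cycling clusters, were set after the clusters had been seen. The members and lists were chosen with earlier results of these data known. CPM used all UMIs of a group. Ratios are log2 of CPM + 10, called at 2-fold with at least 50 UMIs over both groups. Intervals are Clopper-Pearson for shares and exact Poisson for sums (scipy 1.17.1, 95%). Shares that a count of 0 allows are approximate limits, at 3 divided by the number of cells. Thinning was 1 random draw to 1000 UMIs. UMIs count molecules, so intervals and floors of 3 counts cover counting error only. With 1 library per group no test was run. All 9 members are named, with the 3 genes closest to each and at most 6 of the other regulators, those with the largest of the smaller ratio of both populations. The code was tested on simulated data.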

Additional observations from a re-analysis of the deposited data

Results flagged for a closer look

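The reporter and the mixed barcodes lay outside the comparisons and held signal. The chimera library had 9 EGFP UMIs (exact Poisson interval 4.12 to 17.1) in 7 barcodes. Of these, 8 UMIs lay in 6 Myog-negative cells of mouse cluster 13, all 6 of which had Pax7 and 0 of which had Myog, 1 lay in a mixed barcode and 0 in chimera rat cells. EGFP has no row in the SD rat library, so it has no control there.

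All 9 genes had UMIs in the 1653 chimera barcodes with between 20% and 80% of UMIs on mouse rows. Pax7 was found in 33 of these barcodes, Pax3 in 10, Myf5 in 23, Myod1 in 50, Myog in 73, Mymk in 10 and Mymx in 8. Myf6 was found in 168 and Mef2c in 832. The mouse row held 35.1% (28.9 to 41.6) of the Myf6 UMIs and 24.6% (14.1 to 37.8) of those of Myod1, beside 1.27% for Myf6 in chimera rat fibres and 0 for Myod1 in chimera rat MP-like cells. Both rows were seen in the same barcode for Myf6 in 12 barcodes and for Mef2c in 275. There were no control samples for these barcodes, and the counts were not tested.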

How the results depend on the processing

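Most values stayed within the limits set for them, which were counting intervals for shares and ratios. Counts of members have no interval and were set against the size of their main value. Over 17 main results and 158 values under alternatives, 132 stayed within these limits and 26 did not. Among the main results only the Myf6 ratios could change direction, and they did not. Thinning to 1000 UMIs lowered the Myog-positive share to 9.63% (SD rat) and 22.1% (chimera rat), the Pax7 share of satellite-stage cells to 14.8%, 15.4% and 35.3% (SD rat, chimera rat and mouse cluster 13), the Pax7 share of Myog-positive cells to 2.99%, 3.45% and 8.33%, and their Mymk share to 14.9%, 15.2% and 0%. Thinning to 2000 UMIs gave a chimera rat Myog-positive share of 24.3%, Pax7 shares of 30.5%, 29.2% and 41.2% in satellite-stage cells and of 6.25% and 8.33% in Myog-positive cells of the chimera rat and mouse cluster 13, and Mymk shares of 24.6% and 25.0% (SD rat and chimera rat). With species set at 10% and 90% the chimera rat Myog-positive share was 41.8% and its satellite-stage Pax7 share 47.9%. From rows of the called species only, the chimera rat Myog-positive share was 27.0%, and its Pax7 shares were 37.1% in satellite-stage and 10.5% in Myog-positive cells. Median-of-ratios scaling raised the Myf6 ratio of fibres to satellite-stage cells to 3.20 (SD rat) and 3.34 (chimera rat), since it moved the median gene by -1.48 and -1.75. The counts of members past 2-fold between chimera and SD rat stayed at 0 in satellite-stage and myofibre-like cells, and 3 members kept over 20% of UMIs on the mouse row, under every alternative run. Leaving out cycling cells, or the mouse cell with most Tagln UMIs, both chosen after seeing the data, moved no main result past its interval. Single-member ratios numbered 42, with 408 alternative values. A change of sign was counted only where the main ratio was at least 2-fold, and 0 were counted. Of the 408 values, 30 left their interval and 12 crossed 2-fold. Of these, 7 were the dip of Myf6 in SD rat Myog-positive cells, which lay close to the limit, and Myod1 in chimera rat fibres stood at -0.82 with median-of-ratios scaling. Myf6 in chimera rat Myog-positive cells stood at -0.89 with species at 10% and 90%, and Myf5 of Myog-positive cells at 1.09 between chimera and SD rat with a pseudocount of 1 CPM. No paired analysis was possible because each group was 1 library. Depth limits Pax3, Mymx and every value of mouse cells, where 3 UMIs correspond to 10.5 CPM or more.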

Other observations

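Pax3 had UMIs outside the muscle lineage that differed between the libraries. In FAP-like cells of the chimera rat 118 Pax3 UMIs were found in 66 of 2657 cells (3.52 CPM, 2.91 to 4.22), and in those of the SD rat 7 UMIs in 6 of 3236 cells (0.188 CPM, 0.0756 to 0.388). In the chimera rat the UMIs lay in 5 of the 6 FAP-like clusters. Cluster 1 held 54 of them in 27 of 601 cells (7.92 CPM), and cluster 0, led by Sfrp4, held 16 in 925 cells (1.39 CPM). The SD rat cluster led by Smoc2 and Cxcl14 held 5 Pax3 UMIs in 1190 cells. The highest cell held 6 UMIs, so no single cell made the level. Muscle of the whole body was pooled for each library, and the part of each body region, of the animal and of the library cannot be told apart. This comparison was chosen after the values were seen.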
